A study of Mus musculus with 2 samples.

Results

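Proteoglycans and matricellular proteins are the matrix molecules that a myeloid cell makes, carries on its surface or stores in its granules. The 10 genes described here were chosen by name, as every probe set that the platform annotation gives to versican, the syndecans Sdc1, Sdc3 and Sdc4, serglycin, Cd44, fibronectin, thrombospondin 1, osteopontin or Tgfbi. Of these 10 genes, 9 had a probe set with a single gene symbol, out of 18193 such genes on the array. They were read by 30 of the 45037 probe sets. No probe set is named here for Spp1 (osteopontin), so it was not analysed here. The genes were put together with the differences between these arrays already known, so the differences below are a description and are not tested.

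The samples were 2 cultures of bone marrow cells from C57BL/6 mice, 1 given a control siRNA and 1 given silncMDSC, which targets a long non-coding RNA named lncMDSC in the labels and lnc-C/EBPβ in the study. After transfection both grew for 4 days in medium with IL-6 and GM-CSF, cytokines that turn bone marrow cells into myeloid-derived suppressor cells (MDSCs), and total RNA of the whole culture was put on 1 Affymetrix mouse whole-genome array each. The comparison asks which transcripts depend on lnc-C/EBPβ. With 1 array per group there is no replicate check, no p-value can be given, and every value describes this pair of cultures only. In such bulk RNA, fewer cells of a type and less RNA per cell cannot be told apart. The targeted RNA has no named probe set in the annotation used, and its knockdown was not analysed here.

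The labelled cell type could be checked in part. The signal of Itgam, which encodes CD11b, was 2144 with control siRNA and 2040 with silncMDSC. The probe set shared by Ly6c2 and Ly6c1 had 8777 and 8671, and no probe set is named here for Ly6g. Myeloid message was therefore present on both arrays, in nearly equal amounts by these probe sets. Median intensities were 77.9 in control and 79.0 in silncMDSC.

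A proteoglycan is a core protein that carries glycosaminoglycans, long sulfated sugar chains such as chondroitin sulfate and heparan sulfate. Versican is secreted and binds hyaluronan, syndecans span the plasma membrane and act as co-receptors, and serglycin packs charged proteins into granules. Matricellular proteins are secreted into the matrix and act mainly on cell behaviour through integrins and other receptors. In myeloid cells, versican is known as a product of monocytes, whereas fibronectin and Tgfbi are made by monocytes and macrophages and thrombospondin 1 by macrophages and platelets.

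Among the 9 measured genes, Vcan was lower in the silncMDSC culture on each of its bright probe sets and Sdc4 was moderately lower on both of its own. Sdc1 was 2.02-fold higher on 1 of its 4 probe sets and within 1.5-fold on the others. Sdc3 and Fn1 were slightly higher. Srgn, Cd44, Thbs1 and Tgfbi were nearly level. Differences are log2(intensity + 1) in silncMDSC minus that in control. A probe set was called above the floor when its higher value reached 78.4, the median intensity over the whole of both arrays, and 22 of the 30 did. By direction, 20 of the 30 differences were below 0 and 10 above it, and 16 were smaller than 1.1-fold. Of the 30 probe sets, 4 were at least 1.5-fold lower, all of Vcan, and 1 was at least 1.5-fold higher, of Sdc1. Of all 45037 probe sets, 1.24% were at least 1.5-fold lower and 0.839% at least 1.5-fold higher. Over the 23193 probe sets that reached the floor these shares were 1.38% and 0.776%, and among the 22 member probe sets that did, 3 were lower and 1 higher by that fold. The 1 higher probe set, of Sdc1, passed the floor only through its silncMDSC value, so its count above the floor follows in part from the filter. The median difference over the 9 genes, each represented by its brightest probe set, was -0.04, beside -0.002 over the 11920 genes above the floor. The median size of the difference, whatever its sign, was 0.17 over the 9 genes and 0.12 over those 11920. These shares and medians describe genes that were chosen with their values known, and nothing is read from them.

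**Figure D1:**
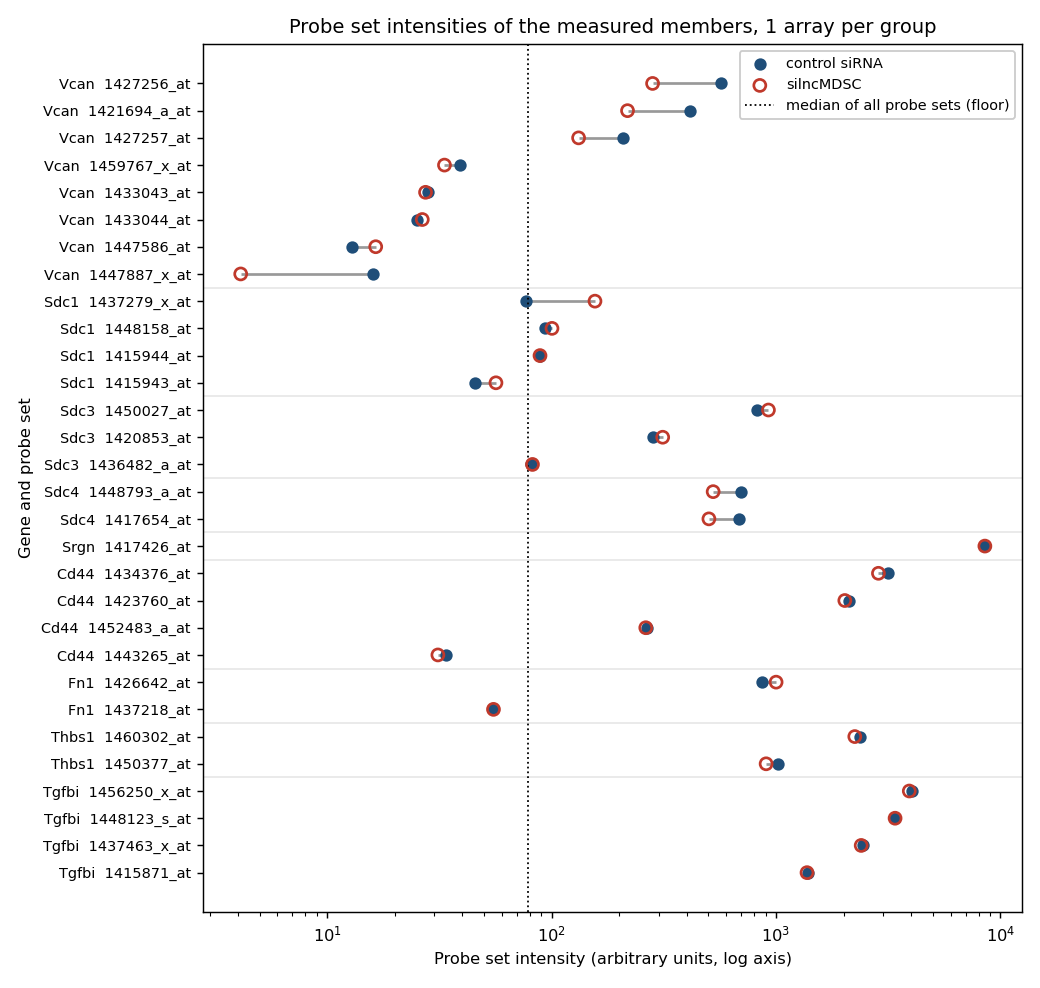
Intensity (x axis, arbitrary units, log axis) of each of the 30 probe sets (y axis, by gene) on the control array (filled blue) and the silncMDSC array (open red), 1 array per group, with the floor of 78.4 as a dotted line. The 3 Vcan probe sets right of the floor and both Sdc4 probe sets lie lower in silncMDSC, Sdc1 differs clearly on 1 of 4 probe sets, and the symbols of Srgn and Tgfbi overlap. Distances between the 2 symbols of a row can be read, but levels of different probe sets cannot be compared.

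Vcan encodes versican, the large chondroitin sulfate proteoglycan. The brightest of its probe sets, 1427256_at, gave 567 with control siRNA and 282 with silncMDSC, which is 2.01-fold lower. Probe set 1421694_a_at had 414 and 218, 1.89-fold lower. Probe set 1427257_at had 208 and 132, 1.57-fold lower. The 3 probe sets above the floor thus lay on the same side, with a mean difference of -0.86 and an SD between probe sets of 0.18, which measures probe disagreement and not culture to culture spread. Counted from the most negative difference among the 23193 probe sets above the floor, they ranked 28, 44 and 235. Of the genes above the floor, 0.134% were at or below the difference of Vcan on its brightest probe set. The ranks and this share describe a gene chosen with its values known, and nothing is read from them.

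The other 5 Vcan probe sets stayed below the floor on both arrays, with intensities between 4.12 and 39.3, and they did not share a direction. Probe set 1447887_x_at had 15.97 in control and 4.12 in silncMDSC, a difference of -1.73 that shrank to -0.67 with a pseudocount of 16. Probe set 1447586_at went the other way, with 12.9 and 16.5 (0.33). The remaining 3 dim probe sets differed by -0.23, -0.04 and 0.08. The lower versican signal was therefore measured on the bright probe sets, and the dim ones give no usable size.

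Versican is a monocyte product, and both monocyte and macrophage genes can be set beside it. All 11 monocyte genes with a probe set were above the floor, of which 0 were at least 1.5-fold lower and 0 at least 1.5-fold higher. Their summed intensity was 15808 in control and 16949 in silncMDSC, and their median difference was 0.16. Csf1r, the receptor for the growth factor M-CSF, had 4088 and 4347, the clotting factor gene F13a1 had 2442 and 2433, and the calcium-binding protein gene S100a4 had 1878 and 2291. The list was split, with 3 genes below 0 and 8 above it. The membrane protein genes Ms4a6c (1457 and 1033) and Ms4a4c (661 and 504) were lower, and F13a1 differed by only -0.005. Ms4a6c differed by -0.13 on another probe set above the floor. The chemokine receptor gene Ccr2 (845 and 1069) was among the 8 higher genes. Much of the higher sum came from Crip1 (1469 and 2129) and S100a4. The part of monocyte content in the Vcan difference was not tested. Of 18 macrophage genes, 16 passed the floor, 5 of these at least 1.5-fold lower and 0 higher, and their summed intensity was 27382 in control and 23391 in silncMDSC. Array-wide, among 11920 genes passing it, the lower side held 1.42% and the higher side 0.948% past the same fold. The same baseline applies to the dendritic cell list below. Beside Csf1r, the brightest macrophage genes were Gpnmb (3934 and 2800) and the lipase gene Lpl (3645 and 3424). Gpnmb differed by -0.49 on this probe set and by -1.07 on another above the floor. The 5 past 1.5-fold were Mrc1 (-0.93), Msr1 (-0.91), Apoe (-0.88), Maf (-0.85) and Mertk (-0.69), while Adgre1, which encodes F4/80, had 3070 and 3068. On other probe sets above the floor, Msr1 ran from -0.88 to -0.40 and Maf from -0.71 to -0.41. By direction, 12 of the 16 lay below 0 and 4 above it, among them Vcam1 (0.16) and Axl (0.13). The macrophage markers Cd163 and Marco stayed below the floor. Dendritic cell genes lay on the other side, with 8 of 10 above the floor, 4 of these at least 1.5-fold higher and 0 lower, and a summed intensity of 12303 and 17054. The 4 were H2-Eb1 (0.75), Ciita (0.70), Itgax (0.66) and Ccr7 (0.64), with H2-Aa (4661 and 6210) and H2-Ab1 (4379 and 5618) the brightest beside H2-Eb1, and Xcr1 and Siglech below the floor. Ciita differed by only 0.09 and 0.38 on 2 other probe sets above the floor. On their other probe sets above the floor, H2-Aa ran from 0.49 to 0.79 and H2-Ab1 from 0.82 to 0.87. Flt3 (0.34) and Zbtb46 (0.14) were higher by less than 1.5-fold. The part of macrophage or dendritic cell content in the Vcan difference was not tested.

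The syndecans are heparan sulfate proteoglycans of the cell surface, and the 3 described here did not move alike. Sdc4, the syndecan of focal adhesions, was read by 2 probe sets that gave nearly the same result. Probe set 1448793_a_at had 700 in control and 525 in silncMDSC, and 1417654_at had 681 and 502. Their differences were -0.42 and -0.44, that is 1.33-fold and 1.36-fold lower, so Sdc4 lay within the 1.5-fold threshold. Of the genes above the floor, 3.90% were at or below the Sdc4 difference.

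Sdc3, an adhesion and co-receptor syndecan, was higher on all 3 of its probe sets, each time by little. Probe set 1450027_at had 822 in control and 925 in silncMDSC. Probe set 1420853_at had 282 and 313, and the dimmer 1436482_a_at had 80.7 and 82.2. The differences were 0.17, 0.15 and 0.03. None of them reached the robust SD (scaled median absolute deviation) of the probe sets above the floor, which was 0.18.

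Sdc1 encodes syndecan 1, also called CD138, a marker of plasma cells and epithelia. Its 4 probe sets disagreed. On 1437279_x_at the control array gave 76.7 and the silncMDSC array 156, a 2.02-fold higher value. The control value lay below the floor of 78.4, so this probe set passed the floor only through the array where it was high, and the size of its difference is uncertain. Probe set 1448158_at had 93.0 and 100 (0.11), 1415944_at had 89.1 and 88.8 (-0.005), and 1415943_at, below the floor, had 45.7 and 56.5 (0.30). Only the first exceeded 1.5-fold, and its identifier ends in _x_at, the manufacturer's sign that some of its probes can match other transcripts. Without such probe sets, Sdc1 is read from 1448158_at and lies within 1.5-fold.

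Plasma cell genes can be set beside Sdc1. Of 8 with a probe set, 6 were above the floor, 0 were at least 1.5-fold apart, and their summed intensity was 5719 in control and 5638 in silncMDSC. Jchain and Tnfrsf17 stayed below the floor. Prdm1 (79.9 and 79.8), Mzb1 (191 and 185) and Pou2af1 (108 and 117) were above it. Xbp1, a regulator of secretory cells that myeloid cells also express, had 4042 and 3833. The receptor gene Tnfrsf13b had 917 and 942, and the transcription factor gene Irf4 had 292 and 402. The part of plasma cell message in the Sdc1 values was not tested. Sdc2, the remaining syndecan, had 106 and 115 (0.12) on its brightest probe set and differed by -0.13 on another above the floor.

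**Figure D2:**
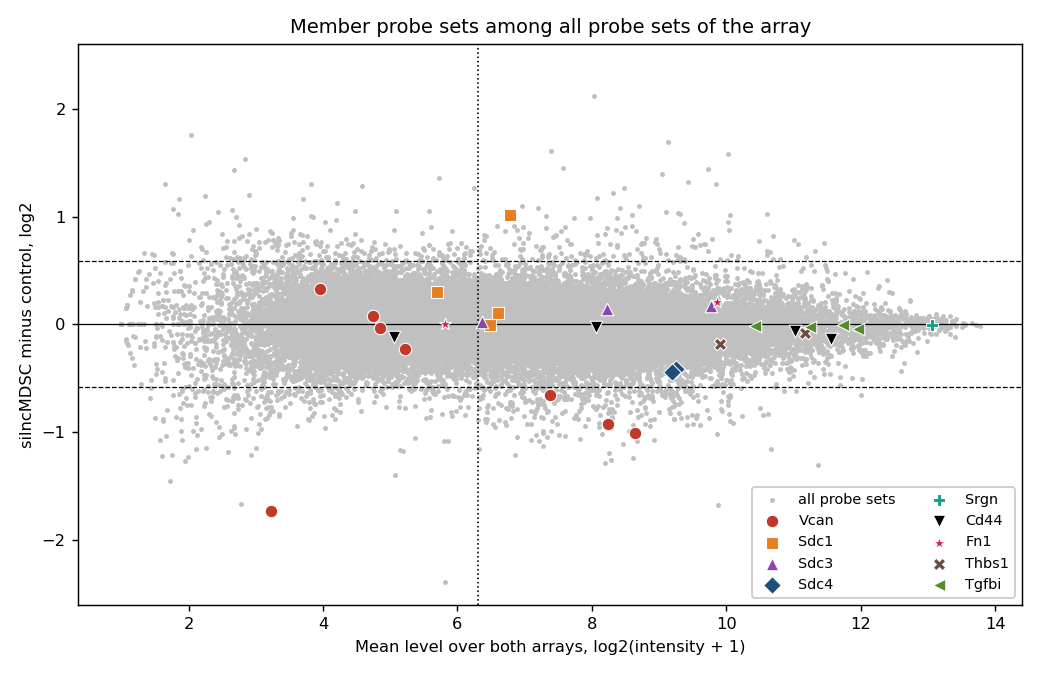
Each symbol is 1 of the 30 probe sets, placed by its level averaged over the arrays (x axis, log2(intensity + 1)) and by how far silncMDSC lay from control (y axis, log2 difference), over all 45037 probe sets in grey. Dashed lines mark 1.5-fold and the dotted line the floor. Vcan reaches -1.01 among the bright probe sets and -1.73 at low level, where the grey cloud is wide, and Sdc1 reaches 1.01 on 1 probe set.

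For Vcan and the syndecans, the 250 bases upstream of the annotated start are shown, because these are the members whose differences were largest or opposed each other and because the targeted RNA is described as binding C/EBPβ. The sequences are those of RefSeq, build GRCm38.p6, in which 8 of the 10 genes had an entry, and run 5′ to 3′ on the strand of the gene. Capitals mark matches on either strand. The C/EBP motif searched was TTGCNNAA. For AP-1 it was TGANTCA. The Sp1 motif was GGGCGG, and that of the TATA box was TATAAA. They do not overlap in the windows shown. Vcan lies at chr13:89742513-89742762, minus strand, and Sdc4 at chr2:164443189-164443438, minus strand. Sdc1 lies at chr12:8771146-8771395, plus strand, and Sdc3 at chr4:130792287-130792536, plus strand.
Vcan: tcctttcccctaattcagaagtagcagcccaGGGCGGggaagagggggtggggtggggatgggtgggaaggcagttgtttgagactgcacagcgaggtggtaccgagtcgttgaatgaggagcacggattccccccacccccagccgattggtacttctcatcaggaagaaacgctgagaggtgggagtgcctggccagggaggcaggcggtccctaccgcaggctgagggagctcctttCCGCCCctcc
Sdc4: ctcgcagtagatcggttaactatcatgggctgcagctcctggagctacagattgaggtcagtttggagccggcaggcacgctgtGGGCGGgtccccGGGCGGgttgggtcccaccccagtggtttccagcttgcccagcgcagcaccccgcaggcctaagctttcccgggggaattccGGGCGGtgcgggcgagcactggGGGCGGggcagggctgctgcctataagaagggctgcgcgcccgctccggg
Sdc1: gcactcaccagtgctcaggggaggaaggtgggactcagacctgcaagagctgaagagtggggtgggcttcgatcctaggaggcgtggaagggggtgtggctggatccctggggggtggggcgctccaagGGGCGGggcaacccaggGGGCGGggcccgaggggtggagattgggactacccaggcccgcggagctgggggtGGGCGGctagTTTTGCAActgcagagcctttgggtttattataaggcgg
Sdc3: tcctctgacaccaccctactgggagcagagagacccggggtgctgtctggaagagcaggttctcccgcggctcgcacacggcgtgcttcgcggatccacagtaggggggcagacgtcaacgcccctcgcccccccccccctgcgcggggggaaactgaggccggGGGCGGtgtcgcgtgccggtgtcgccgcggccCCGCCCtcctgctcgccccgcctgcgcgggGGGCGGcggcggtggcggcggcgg

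These windows are rich in G and C. The share of G and C was 62.4% for Vcan, 68.0% for Sdc4, 66.0% for Sdc1 and 76.4% for Sdc3, with 10, 19, 10 and 32 CpG dinucleotides. All of them held GGGCGG, which occurred 2 times for Vcan, 4 times for Sdc4, 3 times for Sdc1 and 3 times for Sdc3, and which 32.7% of the 32851 windows of the same length in the table hold. TTGCNNAA occurred 1 time in Sdc1, on the opposite strand, and was not found in the other windows shown, against 9.56% of all windows. TGANTCA and TATAAA, held by 6.75% and 12.4% of all windows, were not found in these 4. Such matches are a description of letters in a short window.

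Srgn encodes serglycin, the proteoglycan of secretory granules in neutrophils, mast cells and macrophages. Its single probe set, 1417426_at, had 8552 in control and 8521 in silncMDSC, a difference of -0.005 whose sign turned with other scalings. The serglycin signal was thus bright and level on both arrays. Signals this bright can be compressed on arrays, which was not tested. Granule-bearing cell types can be set beside it. All 10 neutrophil genes with a probe set were above the floor, 0 were at least 1.5-fold apart, and their summed intensity was 72915 in control and 70465 in silncMDSC. The brightest were S100a9 (13983 and 13880), S100a8 (13474 and 13399) and Ngp (11661 and 11767). Of 11 mast cell and basophil genes, 9 were above the floor, again 0 were at least 1.5-fold apart, and the sum was 7881 and 8577. The brightest were Mcpt8 (4030 and 4082), Cpa3 (1257 and 1750) and Gata2 (1216 and 1343), and Tpsab1 and Cma1 stayed below the floor.

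Cd44 encodes the main cell surface receptor for hyaluronan, which in some splice forms carries glycosaminoglycans itself. Probe set 1434376_at had 3139 in control and 2859 in silncMDSC, and 1423760_at had 2110 and 2025. Probe set 1452483_a_at had 267 and 263, and 1443265_at, below the floor, had 33.8 and 31.1. All 4 differences were slightly negative, between -0.13 and -0.02. None was 1.1-fold or more.

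Fn1 encodes fibronectin, the adhesive glycoprotein that integrins bind. Probe set 1426642_at had 869 in control and 1001 in silncMDSC, 1.15-fold higher (0.20). Its other probe set, 1437218_at, was below the floor with 55.0 and 55.1. The higher value thus rests on a single probe set. Of the genes above the floor, 12.0% were at or above this difference.

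Thbs1 encodes thrombospondin 1, an activator of latent TGF-β and a ligand of CD36 and CD47. Probe set 1460302_at had 2376 in control and 2244 in silncMDSC, and 1450377_at had 1022 and 903. The differences were -0.08 and -0.18. A further probe set, 1421811_at, is annotated to both Pald1 and Thbs1 and was not counted; it had 6161 and 5813 (-0.08). All 3 were slightly lower in silncMDSC.

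Platelets also carry thrombospondin 1, so megakaryocyte and platelet genes are given beside it. Of 10, 8 were above the floor, with 1 at least 1.5-fold lower and 1 higher. Over all genes above the floor these shares were 1.42% and 0.948%. The lower gene was the chemokine gene Ppbp (2302 and 1502), and the higher one was the integrin subunit gene Itgb3 (146 and 232). The summed intensity was 10292 in control and 7759 in silncMDSC, most of it from Ppbp and the chemokine gene Pf4 (7187 and 5343), whereas the platelet receptor genes Gp9 and Itga2b had 87.6 and 96.2, and 189 and 209. Gp5 and Vwf stayed below the floor. The part of platelet message in the Thbs1 values was not tested.

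Tgfbi encodes a matrix protein, induced by TGF-β, that binds collagens and integrins. Its 4 probe sets agreed closely. They had 4031 and 3924, 3400 and 3392, 2444 and 2396, and 1385 and 1374, in control and silncMDSC. The identifiers of 1456250_x_at and 1437463_x_at end in _x_at, as that of the Sdc1 probe set does, and that of 1448123_s_at ends in _s_at. The differences ran from -0.04 to -0.003, with an SD between probe sets of 0.02. The sign of 2 of them turned with other scalings, so no direction can be given for Tgfbi.

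Fibroblasts are the usual source of several of these proteins, and their genes were dim in the cultures. Of 12 stromal genes with a probe set, 8 were below the floor on both arrays, among them Col1a1, Col3a1, Dcn, Lum, Pdgfra and Pdgfrb. The summed intensity of the list was 1682 in control and 1848 in silncMDSC. Its brightest gene was Thy1 (886 and 1110), which T cells also express, followed by Acta2 (243 and 170) and Col5a1 (121 and 131). No member of any marker list was at the lowest value of the table on either array.

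Genes around the members were read in 5 lists, for other core proteins, other matricellular and adhesive proteins, glycosaminoglycan synthesis, matrix-cutting enzymes, and receptors. These held 125 genes that passed the floor, of which 4 were lower by at least 1.5-fold, 1 was higher by as much and 120 lay between. That is 3.20% lower and 0.80% higher, beside 1.42% and 0.948% of the 11920 genes above the floor. By direction, 63 lay below 0 and 62 above it, and the median was -0.001. The lists as a whole were level by this median. The few genes past 1.5-fold are named below, and their differences were not tested.

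Other proteoglycan core proteins had a median of 0.09 over 18 genes, with 1 at least 1.5-fold lower and 0 higher. The lower one was Nrp1, neuropilin 1, a co-receptor for semaphorins and VEGF that can carry a glycosaminoglycan chain. It had 277 in control and 135 in silncMDSC (-1.03), with differences of -0.81 and -0.78 on 2 further bright probe sets. Cd74, the class II invariant chain, of which a minor form carries chondroitin sulfate, had 4360 and 5502 (0.34). Tgfbr3, or betaglycan, differed by -0.29 on its brightest probe set and by 0.11 on another.

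Other matricellular and adhesive proteins had a median of 0.03 over 19 genes, with 1 at least 1.5-fold lower and 0 higher. Ccn3, a member of the CCN family of matricellular proteins, had 1465 in control and 972 in silncMDSC (-0.59), with -0.56 on a second bright probe set. Mfge8, which bridges dying cells to integrins of phagocytes, had 1207 and 1675 (0.47). Ccn6 had 121 and 96.0 (-0.33). The galectin gene Lgals3, with a bright signal, had 10176 and 9921.

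Enzymes that build and sulfate glycosaminoglycans had a median of -0.01 over 35 genes, with 1 at least 1.5-fold lower and 0 higher. The lower one was B3galt6, which adds a galactose of the linker that joins every chondroitin and heparan sulfate chain to its core protein. It had 216 in control and 109 in silncMDSC (-0.99), with -0.55 on a second bright probe set. Hs2st1, a heparan sulfate 2-O-sulfotransferase, differed by -0.37 on the brightest probe set but by 0.09 and 0.10 on the others above the floor. Extl2, a further glycosyltransferase, had -0.29 and -0.19.

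Enzymes that shed or cut these proteins, and their inhibitors, had a median of 0.04 over 33 genes, and 0 were at least 1.5-fold apart. Plaur, the urokinase receptor, had 2289 in control and 1680 in silncMDSC (-0.45), and urokinase itself, Plau, had 209 and 153 (-0.45). The metalloproteinase gene Mmp19 had 102 and 132 (0.37). Adam17 (1067 and 1053) and Adam10 (1251 and 1262), which can shed syndecans and CD44, were level.

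Receptors and partners of the members had a median of -0.09 over 20 genes, with 1 at least 1.5-fold lower and 1 higher. Cd36, a receptor for thrombospondin 1 and for oxidised lipids, had 591 in control and 279 in silncMDSC (-1.08), with -1.25 on a second bright probe set. Itgb3, which pairs with Itgav as a receptor for fibronectin and osteopontin, was 1.59-fold higher, whereas Itgav had 629 and 616. Tlr2, through which versican can act on macrophages, had 1173 and 788 (-0.57), and the scavenger receptor Stab1 had 193 and 135 (-0.51). Cd47 (4373 and 4216) and the integrin subunit gene Itgb1 (368 and 369) were level on their brightest probe sets. On 4 other probe sets above the floor, Cd47 ran from -0.30 to 0.14. Sdcbp, which encodes the syndecan-binding adaptor syntenin, had 5136 and 4659, a difference of -0.14.

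**Figure D3:**
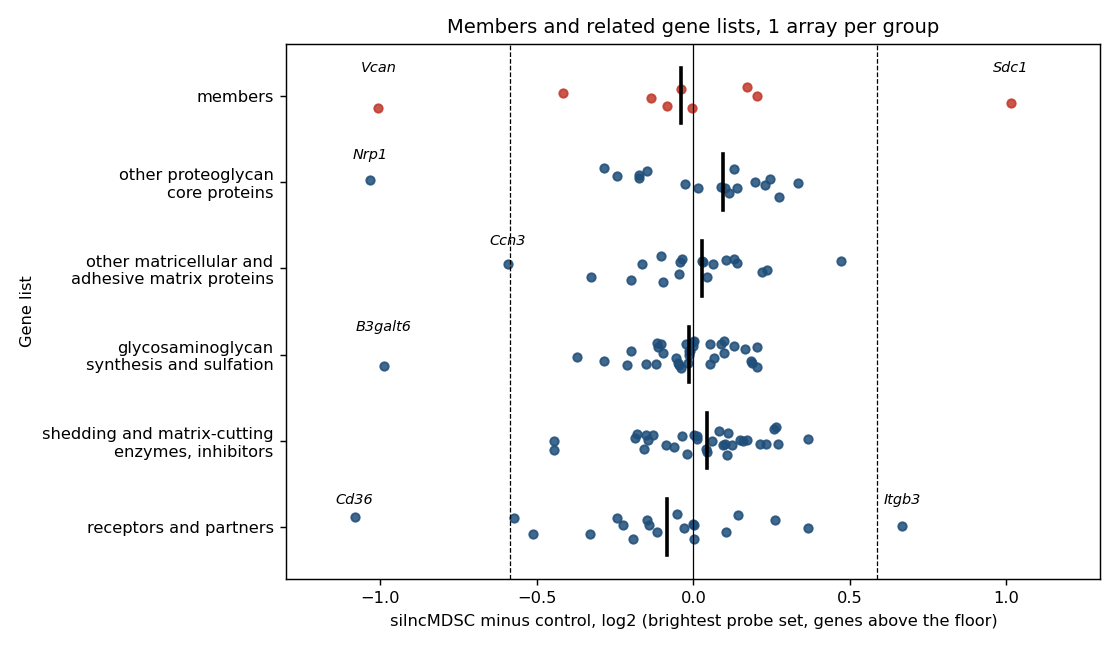
Points are genes above the floor in the group described here (red) and in the 5 related lists (blue), by their silncMDSC minus control difference (x axis, log2, brightest probe set), with black bars at the medians and dashed lines at 1.5-fold. Each list has at most 1 gene beyond 1.5-fold in a direction, and the medians lie between -0.09 and 0.09.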

How the data were processed

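Per the labels, 6 µg of total RNA per culture was made into biotin-labelled cRNA. The authors deposited probe set intensities, 1 column per array, on a linear scale with a lowest value of 1. The submitters' processing notes name RMA without a version. RMA usually returns log2 values, and the sources used here do not say whether these linear values came from a step after RMA or from another method in its place. Scanner files were not used here. The study's methods name limma, which could not be fitted with 1 array per group, so no test was run.

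Without the 64 Affymetrix control probe sets, genes were named from the platform annotation where it gave 1 symbol (34945 of 45037 probe sets). The brightest probe set over both arrays stood for its gene. Differences were log2(intensity + 1), silncMDSC minus control, which slightly understates dim genes. Calls were by size, at least 1.5-fold. List symbols were matched to current ones through RefSeq synonyms (7 symbols). All 30 probe sets of the members were described. Of each related list, the text names the 3 genes above the floor with the largest differences and any at least 1.5-fold apart. Of each marker list it names the 3 brightest and any at least 1.5-fold apart. Others were added after their values were seen. The members and lists were chosen with earlier results of these data known. Calculations used Python 3.11.15, pandas 2.3.3 and statsmodels 0.14.6, and were tested on simulated data. The number of arrays limits the precision.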

Additional observations from a re-analysis of the deposited data

How the results depend on the processing

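The alternatives were median centring of each array, removal of a lowess trend on level (span 0.3), quantile normalization, a pseudocount of 16, member probe sets above the floor only, no floor or one at the 75th percentile for the lists, a gene's probe sets averaged, probe sets ending in _x_at or _s_at left out, and a 2-fold threshold. Without _x_at and _s_at probe sets, 0 member probe sets were at least 1.5-fold higher, since the 1 of Sdc1 was left out by construction. At 2-fold, 2 member probe sets were lower, both of Vcan, in place of 4. Likewise 2 genes of the lists were apart, Nrp1 and Cd36, in place of 15 of 194 at 1.5-fold. The number of member probe sets below 0, the median over the members and the other counts stayed within 1.5 times or within 0.18 of their values under the alternatives run for them, with the median between -0.06 and -0.01. Under the first 4 of these settings the 3 bright Vcan probe sets ran from -1.03 to -0.60 and Sdc4 from -0.46 to -0.36. The sign turned for 4 of the 30 probe sets, namely that of Srgn, 2 of Tgfbi and the dim one of Fn1. The median of the megakaryocyte and platelet list moved from 0.03 to -0.43 with the floor at the 75th percentile, and that of the stromal list from 0.12 to -0.09. The lists and the members have no replicate, so none of these settings measures culture to culture spread. No paired analysis was possible because each group had a single array.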
